A study of Caenorhabditis elegans with 6 samples.

Results

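The vulva of the nematode Caenorhabditis elegans is built in the L3 larva under EGF, Notch and Hox control, and 10 genes of that control were followed here after early induction of LIN-29, a zinc finger transcription factor of developmental timing. The 10 were chosen by name, as rows among the 41573 genes listed in each library. They are the EGF ligand gene lin-3 and its receptor gene let-23, the transcription factor genes lin-1 and lin-31 that the EGF pathway acts on, the FGF gene egl-17, the Notch receptor gene lin-12 and its ligand gene lag-2, the Hox gene lin-39, and the transcription factor genes egl-38 and cog-1. Of these, 8 could be tested, and 1 passed the test, against 6.60% of all tested genes: lin-1 was lower in hs::lin-29. The rows of lin-3 and cog-1 held 2 and 0 reads over all libraries, so neither gene was measured.

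RNA of whole worms was sequenced from 3 libraries of the strain hs::lin-29 and 3 libraries of the strain hs::control. All animals were synchronized and grown at 20 °C, reached the L3 stage at 28 h after feeding, were held at 37 °C for 30 min and were collected 1 h later. The stated design induces lin-29 by this heat shock in hs::lin-29, hs::control had the same heat shock, and no library without heat shock was analysed here. The labels name neither the promoter, the other alleles of either strain nor what hs::control carries, and they call the replicates trials without saying whether these were separate cultures, so p-values speak of the scatter among the libraries at hand, which could be technical.

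In normal development the anchor cell of the gonad secretes the EGF protein LIN-3, which reaches a row of epidermal cells, the vulval precursor cells, through their receptor LET-23. A Ras and MAP kinase cascade then acts on the nuclear factors LIN-1 and LIN-31, while the cell that receives most signal presents Notch ligands to its neighbours, whose receptor LIN-12 turns them to a different fate. LIN-39 keeps the precursor cells able to respond. LIN-29 itself is known in the anchor cell and in vulval cells as well as in the skin, where it drives the switch to adult fates.

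The libraries held between 14553652 and 17303509 reads assigned to genes. lin-29 stood at 131, 517 and 339 CPM (reads of a gene relative to the library total, scaled by TMM factors) in replicates 1 to 3 of hs::lin-29, against 49.8, 43.8 and 45.8 CPM in replicates 1 to 3 of hs::control, so every hs::lin-29 library was above every hs::control library. hs::control replicate 1 stood apart from the other hs::control libraries on the second principal component (27.9 against -15.6 and -9.91). Of 42 tested markers of germline, somatic gonad, muscle, intestine, neurons, epidermis and pharynx, 1 passed by edgeR, against 6.60% of all tested genes. This was the intestinal regulator gene elt-2, higher in hs::lin-29, which was also the only marker to pass by limma-voom. DESeq2 called the epidermis marker dpy-13 besides, while 12 further markers are listed at 0 in every library. In each of these 7 marker lists at least 3 genes passed the filter on low counts.

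**Figure D1:**
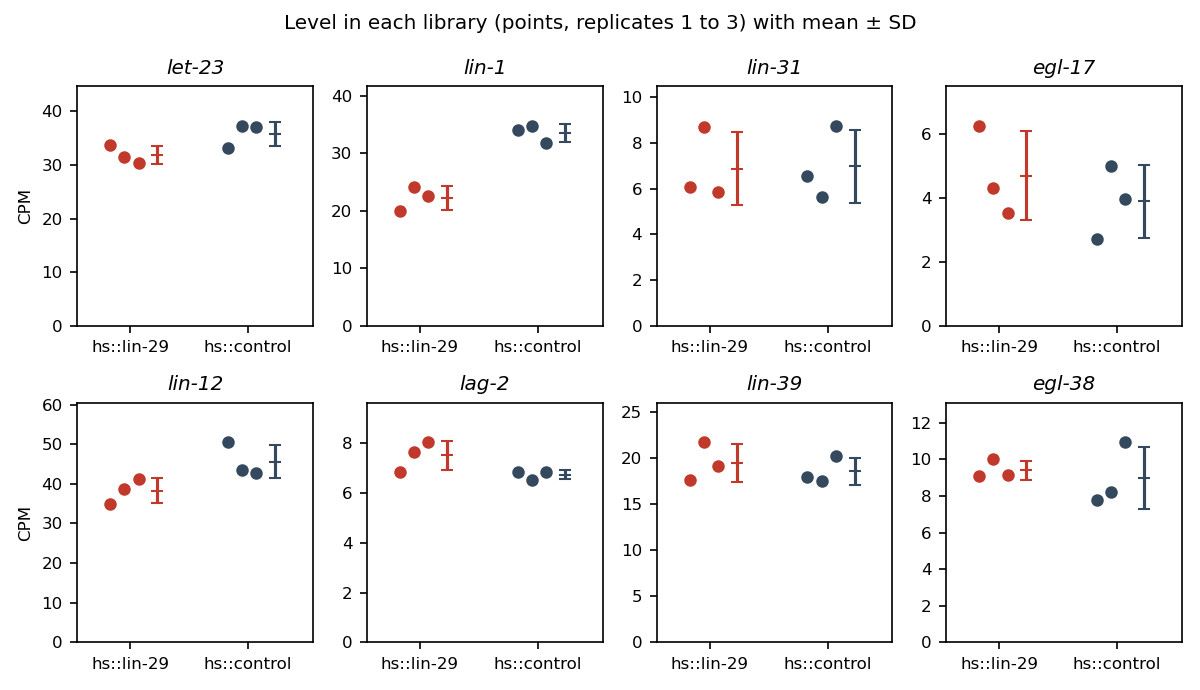
Level (CPM, linear axis from 0) of the 8 measured genes, with 1 point per library for hs::lin-29 (red) and hs::control (blue) and the mean ± SD of 3 libraries beside them. The lin-1 points of hs::lin-29, at 20.0 to 24.1 CPM, all lie below those of hs::control, at 31.8 to 34.8 CPM.

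Among the nuclear targets of the EGF pathway, lin-1 was lower in hs::lin-29. It encodes an ETS family factor that holds back vulval fates until MAP kinase phosphorylates it. lin-1 stood at 20.0, 24.1 and 22.5 CPM in replicates 1 to 3 of hs::lin-29, from 334, 335 and 371 reads, against 34.1, 34.8 and 31.8 CPM in replicates 1 to 3 of hs::control, from 479, 634 and 568 reads. The lowest hs::control library was above the highest hs::lin-29 library. The means were 22.2 ± 2.05 CPM in hs::lin-29 and 33.6 ± 1.56 CPM in hs::control (SD, n = 3 each). lin-1 (WBGene00002990) fell by 0.60 on the log2 scale (standard error, SE, 0.11), which is 1.51-fold lower with a 95% interval of 1.28-fold to 1.79-fold, at an adjusted p of 0.01149 by edgeR's quasi-likelihood test with Benjamini-Hochberg adjustment over all genes.

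The call of lin-1 was kept in each of 16 alternative fits, with an adjusted p of at most 0.04568 by edgeR, reached without hs::control replicate 2. The size of its change was moderate among the genes that passed: 447 of the 540 genes called lower fell by at least as much, and the median log2 fold change of those 540 was -0.95. No other annotated gene shares exons with lin-1 in the reference annotation. The 6 tested epidermis markers went both ways, with a median log2 fold change of 0.05 and a range from -0.36 for dpy-7 to 0.44 for dpy-13. Their summed CPM, which rests mostly on dpy-13, was 5093 to 5806 in hs::lin-29 and 3521 to 4731 in hs::control, with elt-1 and elt-3 listed at 0, and their part in the lin-1 result was not tested. These are bulk samples of whole larvae, so fewer cells of a type and less RNA per cell cannot be told apart.

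lin-31, which encodes a winged-helix factor that forms a complex with LIN-1 until the same kinase phosphorylates it, showed no such shift. lin-31 had 6.06, 8.71 and 5.83 CPM in replicates 1 to 3 of hs::lin-29, against 6.55, 5.65 and 8.74 CPM in replicates 1 to 3 of hs::control. Each strain had 1 library near 8.7 CPM and the others near 6 CPM, and the ranges overlapped almost fully. The log2 fold change was -0.03 (SE 0.23, adjusted p 0.968 by edgeR), with a 95% interval from 0.687-fold to 1.40-fold, so a change of lin-31 as large as that estimated for lin-1 lies just outside its interval.

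At the start of the EGF pathway, let-23, the receptor gene, did not pass the test. let-23 stood at 33.8, 31.6 and 30.4 CPM in replicates 1 to 3 of hs::lin-29, against 33.3, 37.3 and 37.0 CPM in replicates 1 to 3 of hs::control. The strains overlapped through 1 hs::lin-29 library, replicate 1, which lay above hs::control replicate 1. The log2 fold change was -0.17 (SE 0.10, adjusted p 0.4398 by edgeR), and its 95% interval ran from 0.764-fold to 1.04-fold. An annotated piRNA gene shares exon sequence with let-23 on the same strand, so some reads there may have been counted as ambiguous.

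The ligand gene lin-3, whose product the anchor cell secretes, was listed at 2 reads in hs::lin-29 replicate 1 and at 0 in the other 5 libraries. Of the 17469 protein-coding genes whose names were found in the tables, 2053 have no read in any library, among them the MAP kinase gene mpk-1 and the muscle genes unc-15 and lev-11, so a listed 0 was not read as absence and no level of lin-3 was taken from these files. In the reference annotation lin-3 (WBGene00002992) shares exon sequence with ttr-16 on the opposite strand, and cog-1 (WBGene00000584) with R03C1.1 on the opposite strand. The part of these overlaps in the listed zeros was not tested.

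egl-17, which encodes an FGF that attracts migrating muscle precursors and is used as a mark of the primary vulval lineage, was the most variable of the measured genes. egl-17 had 6.24, 4.32 and 3.52 CPM in replicates 1 to 3 of hs::lin-29, against 2.71, 4.99 and 3.98 CPM in replicates 1 to 3 of hs::control. The highest value was in hs::lin-29 and the lowest in hs::control, but the remaining 4 libraries were interleaved. Its coefficient of variation between libraries was 29.8% in hs::lin-29 and 29.4% in hs::control, where read counting alone would give 11.6% and 12.2%. The log2 fold change of 0.26 (SE 0.29, adjusted p 0.7323 by edgeR) had an interval from 0.764-fold to 1.88-fold, and without hs::lin-29 replicate 1 it was -0.02.

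**Figure D2:**
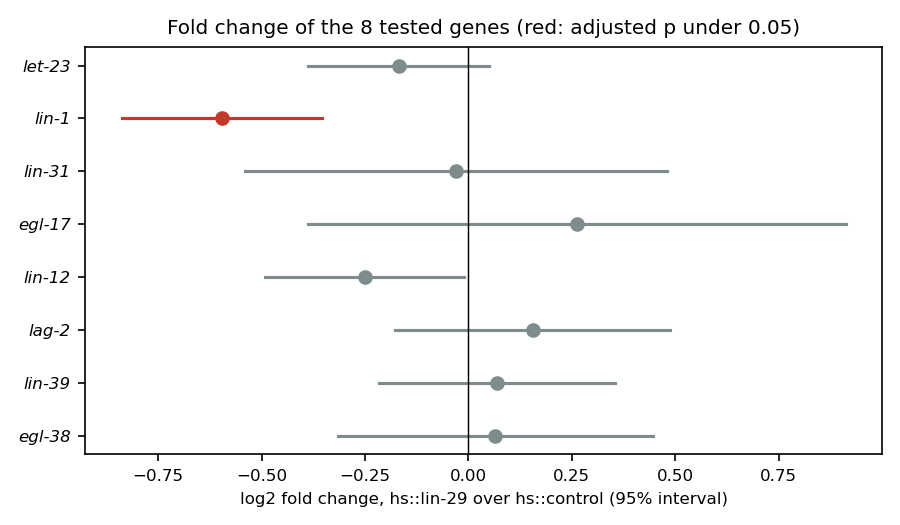
Log2 fold change of hs::lin-29 over hs::control for the 8 tested genes, with 95% intervals as lines. lin-1 at -0.60 is the gene in red that passed the test, and lin-12 at -0.25 has the next lowest value.

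In the Notch pathway the receptor gene lin-12 was lower in every hs::lin-29 library but did not pass the adjusted test. lin-12 had 35.0, 38.6 and 41.2 CPM in replicates 1 to 3 of hs::lin-29, against 50.4, 43.5 and 42.8 CPM in replicates 1 to 3 of hs::control. The groups did not overlap, although the highest hs::lin-29 library and the lowest hs::control library lay close together. The log2 fold change was -0.25 (SE 0.11), 1.19-fold lower with an interval from 1.01-fold to 1.40-fold, and the adjusted p was 0.2488 by edgeR. With hs::control replicate 1 left out, which stood apart and held the highest lin-12 level, the log2 fold change came to -0.17 with an adjusted p of 0.41 by edgeR. Over all 16 alternatives its adjusted p by edgeR, DESeq2 and limma-voom ran from 0.1215 to 0.4808.

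lag-2, which encodes a Delta-like ligand of LIN-12 made in the anchor cell, the vulval lineage and the distal tip cells of the gonad, showed the reverse order at a small size. lag-2 stood at 6.84, 7.63 and 8.02 CPM in replicates 1 to 3 of hs::lin-29, against 6.84, 6.53 and 6.83 CPM in replicates 1 to 3 of hs::control. hs::lin-29 replicate 1 and hs::control replicate 1 were equal to 3 digits, so the separation of the groups rests on less than 1 read. Its spread between libraries, 7.98% in hs::lin-29 and 2.65% in hs::control, was below the 9.23% and 9.44% that read counting alone would give. The log2 fold change was 0.15 (SE 0.15, adjusted p 0.6841 by edgeR), with an interval from 0.884-fold to 1.40-fold.

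The Hox gene lin-39, which keeps the vulval precursor cells from fusing with the skin and lets them respond to the signal, did not pass the test. lin-39 had 17.6, 21.7 and 19.1 CPM in replicates 1 to 3 of hs::lin-29, against 17.9, 17.5 and 20.2 CPM in replicates 1 to 3 of hs::control. The groups overlapped, and the log2 fold change was 0.07 (SE 0.13, adjusted p 0.8569 by edgeR). The 95% interval, from 0.861-fold to 1.28-fold, leaves out a fall of the size seen in lin-1.

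egl-38, a Pax family gene needed where the vulva joins the uterus, was also within the spread. egl-38 had 9.06, 10.004 and 9.17 CPM in replicates 1 to 3 of hs::lin-29, against 7.76, 8.23 and 10.9 CPM in replicates 1 to 3 of hs::control. The hs::lin-29 libraries lay inside the range of hs::control. The log2 fold change was 0.07 (SE 0.17, adjusted p 0.9012 by edgeR), with an interval from 0.804-fold to 1.36-fold. cog-1, an Nkx6 type homeobox gene that patterns the vulval cells, is listed at 0 in all 6 libraries and was not measured.

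Read against the whole table, 1 of 8 tested genes was lower and none was higher by edgeR. Of all 13045 genes tested, 861 passed, which is 6.60%, with 2.46% higher and 4.14% lower. DESeq2 and limma-voom likewise called lin-1 alone among the 8, and 2 of the 8, lin-1 and lin-12, had an unadjusted p under 0.05. That level was reached by 18.2% of all genes. The libraries of the strains did not overlap for lin-1, lin-12 and lag-2, 3 of 8, where 23.2% of all genes showed this. The median log2 fold change of the 8 was 0.02 and that of all tested genes was 0.01, with 4 of the 8 below 0 and 4 above. All 8 had at least 38 reads in every library, so none passed the filter on low counts through 1 strain alone.

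**Figure D3:**
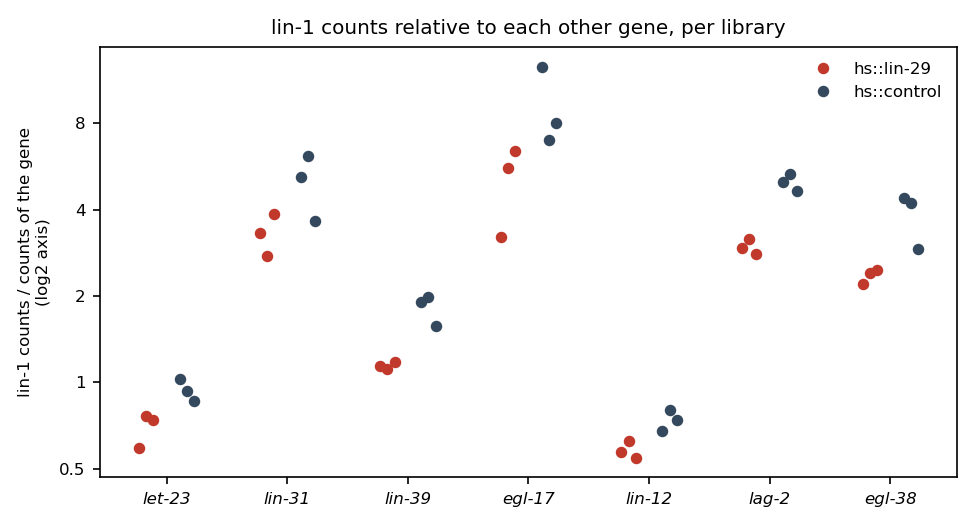
Reads of lin-1 divided by reads of each of the other 7 tested genes (log2 axis), with 1 point per library, hs::lin-29 in red left of hs::control in blue. The hs::lin-29 points lie below the hs::control points for 6 genes and overlap for lin-31.

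Ratios between genes of the same library do not depend on the scaling, and those of lin-1 were examined after its values were seen. The lin-1 to lag-2 ratio was 2.93, 3.16 and 2.81 in replicates 1 to 3 of hs::lin-29, against 4.99, 5.33 and 4.66 in replicates 1 to 3 of hs::control. The lin-1 to lin-39 ratio was 1.14 ± 0.0326 in hs::lin-29 and 1.82 ± 0.220 in hs::control (SD, n = 3 each). The lin-1 to lin-12 ratio was closest between the strains, at 0.581 ± 0.0394 in hs::lin-29 and 0.740 ± 0.0615 in hs::control. All 7 ratios share the lin-1 reads and lin-1 was picked for its fall, so they describe that fall again and were not used as a test. The groups overlapped for lin-31 alone, since hs::control replicate 3 at 3.64 lay below hs::lin-29 replicate 3 at 3.86.

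Levels of different genes were compared per kilobase of annotated exon. In hs::lin-29 the highest were lin-39 at 14.1 ± 1.49 and lin-1 at 12.8 ± 1.18 CPM per kb, which did not differ beyond their spread. lin-12 at 8.41 ± 0.689, let-23 at 7.10 ± 0.386 and egl-38 at 6.67 ± 0.365 CPM per kb followed, of which let-23 and egl-38 overlapped in their spread, then egl-17, lag-2 and lin-31 between 4.97 and 5.38 CPM per kb without differing beyond their spread. egl-17, at 5.38 ± 1.603 CPM per kb, overlapped let-23 and egl-38 as well. In hs::control lin-1 led at 19.3 ± 0.896 CPM per kb, above lin-39 at 13.4 ± 1.06 and lin-12 at 10.01 ± 0.924 CPM per kb. There let-23 at 7.98 ± 0.501 and egl-38 at 6.36 ± 1.21 CPM per kb came next and overlapped in their spread, and lin-31, lag-2 and egl-17 lay between 4.46 and 5.05 CPM per kb, of which lin-31 and egl-17 overlapped egl-38 in their spread. lin-1 stood above lin-39 beyond their spread in hs::control and not in hs::lin-29. Exon lengths come from an annotation of another genome build and are approximate.

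Around these members, 136 further genes of vulval development were followed in 8 lists, of which 108 were tested. By edgeR 3 were higher and 3 lower, or 5.56%, near the 6.60% of all genes, and their median log2 fold change was 0.00. Of the rest, 16 are listed at 0 in every library, 10 had too few reads to test and 2 were not matched by name. Unlike that of lin-1, each of the 6 calls was lost when some single library was left out.

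Of 17 tested genes that carry the EGF signal inside the cell, 1 was lower and none higher by edgeR, with a median log2 fold change of 0.01. DESeq2 called 3 of them and limma-voom 0, where over all genes DESeq2 called 1145 and limma-voom 811. An unadjusted p under 0.05 by edgeR was reached by 4 of 17, against 18.2% of all genes. Libraries did not overlap for 6 of 17, against 23.2% of all genes. plc-3, a phospholipase C gene that acts downstream of LET-23, averaged 45.1 ± 3.397 CPM in hs::lin-29 and 59.0 ± 3.84 CPM in hs::control (a log2 fold change of -0.39 with SE 0.10, at an adjusted p of 0.04823 by edgeR). Its call was lost when any one of the 6 libraries was left out, with adjusted p between 0.065 and 0.1876 by edgeR. lin-45, the Raf kinase gene, is named after its values were seen because it missed the threshold narrowly. lin-45 had 36.7, 31.6 and 30.5 CPM in replicates 1 to 3 of hs::lin-29, against 25.4, 24.1 and 24.8 CPM in replicates 1 to 3 of hs::control, without overlap (log2 fold change 0.41, adjusted p 0.0529 by edgeR). It did not pass in 12 of 16 alternatives, over which its adjusted p by edgeR, DESeq2 and limma-voom ran from 0.03084 to 0.1772. The kinase gene mpk-1, the scaffold gene ksr-2 and the receptor-sorting gene lin-10 are listed at 0 in every library. The Ras gene let-60 and the adaptor gene sem-5, named likewise after their values were seen, had log2 fold changes of 0.10 and 0.28 and did not pass.

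Of 9 tested inhibitors of this pathway and targets of the lateral Notch signal, none passed by edgeR, DESeq2 or limma-voom. An unadjusted p under 0.05 by edgeR was reached by 2 of 9, against 18.2% of all genes. All 9 log2 fold changes were below 0 in the main fit, with a median of -0.09 and a range from -0.48 to -0.01. Several were close to 0: gap-2 at -0.01, dpy-23 at -0.02, ark-1 at -0.03 and lip-1 at -0.04, named after their values were seen. The median of all tested genes was 0.01, and it moved from -0.025 with library totals to 0.0251 with upper quartile scaling. The share of all genes below 0 was not counted. The lowest was gap-1, a Ras GTPase-activating protein gene, at 21.6 ± 4.17 CPM in hs::lin-29 and 30.1 ± 1.01 CPM in hs::control (adjusted p 0.09758 by edgeR). gap-3, of the same enzyme class, stood at 17.6 ± 0.809 CPM in hs::lin-29 and 22.4 ± 0.936 CPM in hs::control (adjusted p 0.1052 by edgeR). The libraries did not overlap for gap-1 and gap-3, 2 of 9, where 23.2% of all genes showed this. dep-1, lst-1, lst-4 and unc-101 are listed at 0 in every library.

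Of 23 tested Notch pathway genes, none passed by edgeR, DESeq2 or limma-voom, and the median log2 fold change was -0.05. An unadjusted p under 0.05 by edgeR was reached by 3 of 23, against 18.2% of all genes. lag-1, the gene of the transcription factor that LIN-12 acts through, stood at 58.6 ± 0.588 CPM in hs::lin-29 and 49.4 ± 4.64 CPM in hs::control (log2 fold change 0.25, adjusted p 0.1983 by edgeR). sel-7, found as a modifier of lin-12 activity, stood at 17.6 ± 3.28 CPM in hs::lin-29 and 24.1 ± 1.87 CPM in hs::control (log2 fold change -0.45, adjusted p 0.1256 by edgeR). sel-7 did not pass in 15 of 16 alternatives, over which its adjusted p by edgeR, DESeq2 and limma-voom ran from 0.03964, without hs::lin-29 replicate 1, to 0.3432. The second Notch receptor gene, glp-1, is named outside the rule and had a log2 fold change of -0.11 (adjusted p 0.735 by edgeR). sel-8 and osm-7 are listed at 0 in every library.

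**Figure D4:**
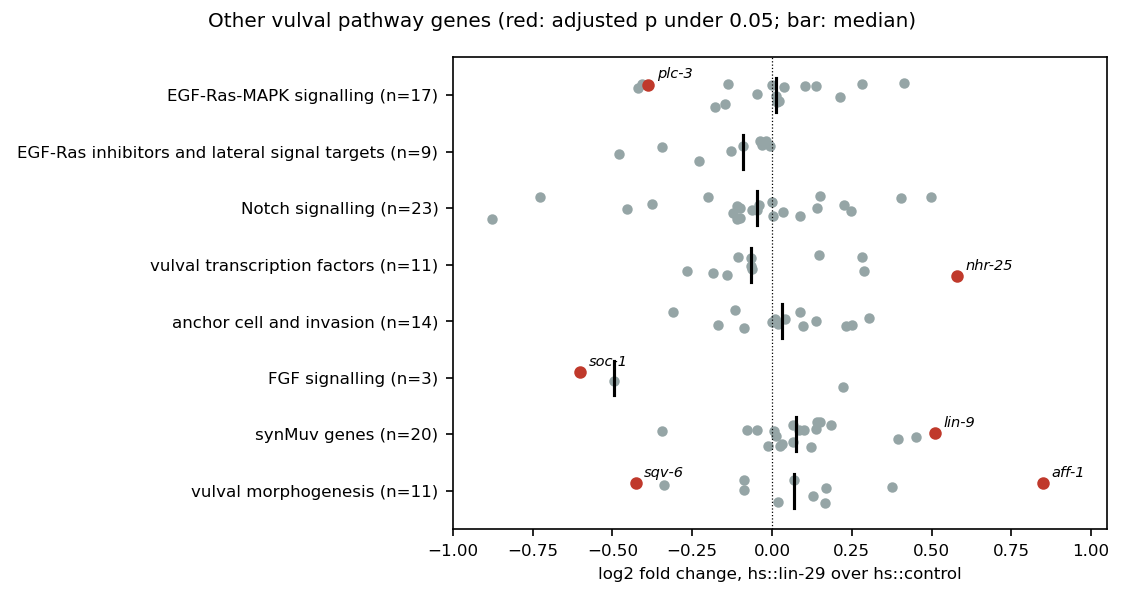
Log2 fold change of hs::lin-29 over hs::control for every tested gene of the 8 lists, with 1 point per gene, the list median as a bar and called genes in red. The points centre near 0 in most lists, and the 6 called genes run from -0.60 for soc-1 to 0.85 for aff-1.

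Of 11 other vulval transcription factor genes, nhr-25 alone passed by edgeR, where 6.60% of all genes passed. The median log2 fold change was -0.06. By edgeR, 3 of the 11 had an unadjusted p under 0.05, against 18.2% of all genes. Libraries did not overlap for 4 of the 11, against 23.2% of all genes. nhr-25, a nuclear receptor gene of the epidermis that also acts with LIN-39, stood at 63.9, 67.9 and 55.9 CPM in replicates 1 to 3 of hs::lin-29, against 47.0, 33.7 and 44.9 CPM in replicates 1 to 3 of hs::control. It rose 1.495-fold (a log2 fold change of 0.58 with SE 0.14 and an adjusted p of 0.041 by edgeR). The call was lost without any single library other than hs::control replicate 1, with an adjusted p of up to 0.1324 by edgeR. The Hox cofactor gene unc-62 is listed at 0 in every library.

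Of 14 genes of the anchor cell and its invasion through the basement membrane, none passed by edgeR, DESeq2 or limma-voom, and the median log2 fold change was 0.03. An unadjusted p under 0.05 by edgeR was reached by 1 of 14, against 18.2% of all genes. fos-1, whose product drives the invasion, stood at 68.0 ± 8.54 CPM in hs::lin-29 and 84.2 ± 2.88 CPM in hs::control (log2 fold change -0.31, adjusted p 0.1511 by edgeR). nhr-67, a nuclear receptor gene needed for the anchor cell state, stood at 12.02 ± 0.699 CPM in hs::lin-29 and 10.1 ± 0.547 CPM in hs::control (log2 fold change 0.25, adjusted p 0.3747 by edgeR). The libraries did not overlap for fos-1 and nhr-67, in opposite directions, 2 of 14, where 23.2% of all genes showed this. Other marks of these cells had log2 fold changes of 0.14 for the cadherin gene cdh-3 and 0.23 for the metalloprotease gene zmp-1, both named after their values were seen. Their libraries overlapped between the strains (adjusted p 0.615 and 0.507 by edgeR). The list went both ways, from -0.31 for fos-1 to 0.30 for mig-6, with ina-1 at -0.17 and unc-40 at -0.12. These last 3 genes are likewise named after their values were seen.

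In FGF signalling, the pathway of egl-17, 3 genes beside it were tested, and soc-1 passed by edgeR, where 6.60% of all genes passed. Libraries did not overlap for 2 of the 3, against 23.2% of all genes. All 3 had an unadjusted p under 0.05 by edgeR, against 18.2% of all genes, and the median log2 fold change was -0.50. The list went both ways. let-756 was at -0.50 with overlapping libraries (adjusted p 0.1133 by edgeR), and clr-1 at 0.22 without overlap (adjusted p 0.2577 by edgeR). Both are named after their values were seen. soc-1, an adaptor gene that acts with the FGF receptor EGL-15, stood at 15.3, 17.99 and 17.1 CPM in replicates 1 to 3 of hs::lin-29, against 22.7, 26.98 and 26.7 CPM in replicates 1 to 3 of hs::control. It fell by 0.60 on the log2 scale (SE 0.12, adjusted p 0.01958 by edgeR). The call was lost without hs::control replicates 2 or 3 or hs::lin-29 replicates 1 or 3, with an adjusted p of up to 0.09442 by edgeR. The receptor gene egl-15 had 4 to 7 reads per library in hs::lin-29 and 4 to 11 in hs::control and was not tested.

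Of 20 tested synMuv genes, chromatin and cell cycle regulators that keep lin-3 from being made outside the anchor cell, lin-9 alone passed by edgeR. This is 1 of 20, against 6.60% of all genes, and the median log2 fold change of the list was 0.07. By edgeR, 3 of the 20 had an unadjusted p under 0.05, against 18.2% of all genes. Libraries did not overlap for 5 of the 20, against 23.2% of all genes. lin-9 stood at 51.0, 59.1 and 56.1 CPM in replicates 1 to 3 of hs::lin-29, against 46.1, 34.3 and 36.4 CPM in replicates 1 to 3 of hs::control. It rose 1.42-fold (a log2 fold change of 0.51 with SE 0.13 and an adjusted p of 0.04567 by edgeR). The call was lost without hs::control replicates 2 or 3 or hs::lin-29 replicates 2 or 3, with an adjusted p of up to 0.1748 by edgeR. DESeq2 called lin-13 besides.

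Of 11 tested genes of vulval morphogenesis, 1 rose and 1 fell by edgeR, where 6.60% of all genes passed. The median log2 fold change was 0.07. By edgeR, 4 of the 11 had an unadjusted p under 0.05, against 18.2% of all genes. Libraries did not overlap for 5 of the 11, against 23.2% of all genes. aff-1, a gene for a cell fusion protein used in vulval and seam cells, rose 1.80-fold, at 13.6 ± 3.69 CPM in hs::lin-29 and 7.54 ± 0.466 CPM in hs::control (adjusted p 0.03748 by edgeR). sqv-6, a xylosyltransferase gene of the sugar chain pathway that opens the vulval lumen, fell 1.34-fold, at 22.4 ± 1.18 CPM in hs::lin-29 and 30.2 ± 1.44 CPM in hs::control (adjusted p 0.03759 by edgeR). The call of aff-1 was lost without any single library other than hs::lin-29 replicate 1, and that of sqv-6 without any single library, with adjusted p of up to 0.1597 and 0.1386 by edgeR. aff-1 also missed the threshold with limma-voom (adjusted p 0.0513) and with scaling to library totals by edgeR (0.0596), and sqv-6 with no filter on low counts by edgeR (0.051). DESeq2 called smp-2 besides these. The fusion gene eff-1, the semaphorin genes smp-1 and mab-20, and sqv-5 are listed at 0 in every library.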

How the data were processed

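Per the labels' protocols, RNA of whole larvae was extracted with a Zymo Quick-RNA kit and made into libraries with a NEBNext Ultra kit. What the authors deposited is a table of raw, unnormalized counts per gene for each library. The submitters' processing notes list HTSeq 0.6.1p1, STAR 2.5.2b, bcl2fastq 2.18, R 3.3.2, DESeq2 1.12.3 and the build ce10, without roles. The sources used here give neither the annotation release nor the strand setting. If strand was ignored, overlapping genes share reads that cannot be separated. The reference here, WBcel235, served only for names, exon lengths and overlaps, so no coordinates are given.

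Rows that name no gene (39.7% to 41.8% of counts) stayed out. Low genes were removed with filterByExpr (edgeR 4.0.16, minimum count 10, total 15) and the rest, with TMM factors, went into the two-sided quasi-likelihood F test, robust, on strain alone, with Benjamini-Hochberg adjustment at 0.05 over all 13045 genes. Standard errors are the absolute log2 fold change over the square root of F, and 95% intervals use them; both are approximate. No replicates were merged, since a chi-square test between them gave at least 11.4 per degree of freedom. Tried on simulated counts, the test called 28% of 50 genes changed 1.5-fold and 79.2% of 48 changed 2-fold. It made 18 false calls with 12796 genes tested.

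The members and lists were chosen with earlier results of these data known. Named are all members, lin-29, up to 4 called genes per list (mean of at least 1 CPM, ordered by size of change), or the 2 with the smallest p where none passed; others are said to be named after their values were seen. Alternatives were RLE, upper quartile and total scaling, no filter or 1 CPM in 3 libraries, DESeq2 1.42.0, limma-voom (limma 3.58.1), no robust estimation, leaving out the 20 genes with most reads, a replicate block and leaving out each library. Software was R 4.3.3 and Python 3.11.15 with scipy 1.17.1, pandas 2.3.3 and matplotlib 3.10.9.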

Additional observations from a re-analysis of the deposited data

How the results depend on the processing

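The count of members past the threshold was 1 under all 16 alternatives, and that gene was lin-1 each time. Signs of members that did not pass changed in some fits with a library left out: lin-31 in 3 (up to 0.16), egl-38 in 2, egl-17 and lin-39 in 1 each. Over all genes, 861 passed, against 1151 with no filter on low counts, 1145 with DESeq2 and 459 to 894 with each library left out in turn. Of the pathway lists 6 genes passed, against 12 with no filter on low counts, 10 with DESeq2 and 0 to 6 with each library left out in turn. It was 0 without hs::control replicate 2 or 3 or hs::lin-29 replicate 3, 2 without hs::lin-29 replicate 2 and 3 without hs::lin-29 replicate 1, with fewer samples in each such fit. Equal replicate numbers are not stated to mark a shared culture or day, and deviations of same-numbered libraries correlated at -0.09, -0.39 and 0.13, with 1 of 6 libraries closest to its own number. With the replicate block 556 genes passed, 1 pathway gene passed (soc-1), and lin-1 passed with an adjusted p of 0.04398 by edgeR; these counts come from a fit with fewer residual degrees of freedom. Of the measured genes egl-17 had the fewest reads, 38 to 104 per library, and its interval spans 0.764-fold to 1.88-fold. Its coefficient of variation was 29.8% in hs::lin-29 and 29.4% in hs::control, above the 11.6% and 12.2% of read counting alone.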
